A study of Mus musculus with 12 samples.

Results

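The mouse genes named Zfp followed by a number were followed as 1 group of zinc finger genes in bone marrow derived macrophages. A gene was a member when its symbol was Zfp with digits and at most 1 last letter, other than Zfp36, and its level was 2 TPM or more in at least 6 of the 12 libraries (TPM is transcript abundance scaled to gene length and library). Of 25230 genes in the deposited table, 393 had such a symbol and 264 were members, while 129 stayed under the level. All 264 were among the 11283 genes tested, which had at least 1 TPM in at least 3 libraries. Of the members, 235 reached 2 TPM in all 12 libraries and 29 did so in 6 to 11, and 4 members lay under 2 TPM in all 3 libraries of some group.

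The macrophages were grown from marrow of wild-type or Piezo1 knockout mice with M-CSF, and each genotype received PBS or the fungus Candida albicans, with 3 libraries of polyadenylated RNA in each of the 4 groups. Piezo1 is a cation channel opened by mechanical force, and the series addresses its place in the response to the fungus. For the knockout PBS libraries the treatment label is PBS but the titles read DMSO, and no label settles which vehicle was used. The labels give no dose, no time of exposure, no mouse strain and no knockout design, and do not say whether replicates were separate animals or cultures, so the spread that p-values are set against may be technical.

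C2H2 zinc finger proteins bind DNA through repeated fingers, each held by 2 cysteines and 2 histidines around a zinc ion. Many carry a KRAB box, which binds the corepressor Trim28 and through it the histone methyltransferase Setdb1, and such proteins are known for silencing transposable elements. Their genes lie in large clusters of recent duplicates, in which neighbours share much of their sequence. A minority have other roles, in RNA binding, ribosome assembly or signalling.

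Reads in genes ranged from 16400119 to 25741091 per library, at which 1 read in a member of median length was worth 0.0217 to 0.0344 TPM. Piezo1 stood at 130 to 147 TPM in the wild-type libraries and 62.4 to 67.5 in the knockout, so its transcript was lower in each knockout library but not absent. One library, wild-type C. albicans replicate 1, differed from both others of its group: chi-square over degrees of freedom, taken on all tested genes, was 16.6 and 15.6 in its pairs, while the other 10 pairs lay between 1.49 and 4.66. Over the members alone its 2 pairs gave 2.76 and 2.82, inside the range of 1.53 to 2.88 of the other pairs. Counts of members are therefore given with and without it. All 10 macrophage markers were detected, with Lyz2 highest. Their summed level, most of it Lyz2, was 27580 to 27970 TPM in wild type with PBS, 23360 to 24940 in wild type with C. albicans, and 16910 to 17160 and 17520 to 17660 in the knockout with PBS and C. albicans. The neutrophil, B cell, T or NK cell, dendritic, stromal and erythroid or mast cell lists each summed to at most 16.0 TPM in any library, and Ly6g, S100a9, Cd3e and Cd209a had no read in any.

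Most members were scarce transcripts. Their mean over the 12 libraries had a median of 7.75 TPM, against 19.4 over all tested genes, and 172 of 264 lay under 10 TPM. Members were also long, with a median transcript length of 3950 bases against 3003, and poor in GC, with a median of 43.4% against 49.6%. Libraries of a group differed by a median coefficient of variation of 11.4% in the 92 members under 5 TPM and 4.96% in the 35 at 20 TPM or more. Just inside the level rule stood Zfp287, Zfp101 and Zfp40, with a sixth highest value of 2.06, 2.13 and 2.15 TPM. Just outside it stood Zfp583, Zfp449 and Zfp7, at 1.96, 1.95 and 1.94 TPM.

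The 6 most abundant members include several that are known for work other than silencing. Zfp263, a protein with a SCAN domain and 9 finger patterns, led with a mean of 81.1 TPM. Zfp622, which takes part in maturation of the large ribosomal subunit, had 60.0 TPM, and Zfp330, a nucleolar protein in which no C2H2 pattern was found, had 58.2 TPM. Zfp385a, a partner of p53, stood at 51.9 TPM, the small protein gene Zfp706 at 46.5 TPM, and Zfp655 at 42.7 TPM. Apart from Zfp263, these genes were nearly level across the 4 groups. Zfp622, for instance, had group means of 63.2 ± 3.13, 57.8 ± 2.35, 59.9 ± 4.28 and 59.2 ± 1.22 TPM (SD, n = 3 each) in wild type with PBS and C. albicans and knockout with PBS and C. albicans. The tests called 2 differences among these 5 genes, a fall of Zfp706 to C. albicans in wild type, by 0.15 on the log2 scale (limma, adjusted p = 0.0158), and a lower level of Zfp655 in the knockout with C. albicans, at -0.21 (limma, adjusted p = 0.0134). The log2 scale throughout is that of TPM + 1, which understates the change of scarce genes.

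A coding sequence was matched for 262 members, and 257 of their translated proteins held at least 1 C2H2 pattern, with a median of 10 and a highest count of 36. A KRAB pattern was found in 113, and in 146 with a wider pattern that was added after the sequences were seen. A SCAN pattern, the mark of a dimerisation domain, was found in 7. Chromosomes 7, 13 and 17 held 128 of the 264 members (48.5%), including 73 of the 113 with the KRAB pattern and 55 of the 149 without it. Members with the pattern were scarcer, with a median of 6.07 TPM against 9.13, and 1 of them exceeded 20 TPM against 34 of those without it. Because neighbours are near copies, 50 members share over 10% of their 50-base words with transcripts of other genes and 20 share over 40%. Another 106 share none. Exons of 84 members overlap those of another gene, and no source used here gives the strand setting of the authors' counting, so reads of such pairs cannot be told apart.

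To ask how wild-type macrophages changed with the fungus, the wild-type C. albicans libraries were compared with the wild-type PBS libraries. A small set of members rose clearly, led by Zfp263, Zfp719 and Zfp429, each about doubled or more, while a larger set fell, most of them by little. By limma over all tested genes with Benjamini-Hochberg adjustment at 0.05, 16 members rose and 71 fell, which is 6.06% and 26.9% of 264, where 16.1% of all tested genes were called higher and 28.3% lower. The share that fell is near the background and the share that rose is below it. The median log2 change of the 71 falls was -0.33, and 3 of the 87 called members reached a log2 change of 1. Without wild-type C. albicans replicate 1, 14 rose and 68 fell.

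The split between rises and falls depends on the scale. Scaling each library by the median ratio of its genes to their mean (median-ratio factors) gave 28 members higher and 42 lower, with 22.7% and 18.5% of all genes called. With the trend of the values on transcript length and GC content removed, 16 were higher and 65 lower of 263, against 17.1% and 21.2% of 11212 genes. The authors' deposited table, whose single comparison matches this one, called 25 members higher and 35 lower at an adjusted p under 0.05, with 18.6% and 14.1% of its 13587 genes with an adjusted p.

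Zfp263 (gene 74120, chromosome 16, 3744099 to 3750790 in GRCm38) is the most abundant member and had the largest rise. Its levels were 59.9, 56.6 and 57.1 TPM in wild type with PBS and 134, 128 and 132 with C. albicans. In the knockout they were 56.6, 56.7 and 58.5 TPM with PBS and 76.9, 79.5 and 78.2 with C. albicans. The PBS libraries of both genotypes overlap, all C. albicans libraries lie above them, and the wild-type ones stand far above the knockout ones. The mean rose 2.27-fold in wild type, a log2 change of 1.17 ± 0.036 (SE; limma, adjusted p = 6.97e-11), and 1.36-fold in the knockout, a log2 change of 0.44 (adjusted p = 3.93e-06). With 1351 to 4107 reads per library and no 50-base word shared with another gene, it is among the best measured members. In the authors' deposited table its log2 fold change in wild type is 1.26.

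The 250 bases before the annotated start of Zfp263 are shown because this promoter belongs to the member with the largest rise. They come from the RefSeq table of GRCm38.p6 (chr16:3743849-3744098, plus strand), read 5′ to 3′, with the CCAAT box, the GC box GGGCGG and the ETS core CGGAAG in capitals on either strand.
Zfp263: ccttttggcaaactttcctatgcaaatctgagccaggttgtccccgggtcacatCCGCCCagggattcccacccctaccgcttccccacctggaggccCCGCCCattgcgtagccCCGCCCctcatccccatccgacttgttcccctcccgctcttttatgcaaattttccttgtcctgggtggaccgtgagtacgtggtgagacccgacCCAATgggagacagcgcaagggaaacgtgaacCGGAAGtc
This window holds 1 CCAAT, 1 CGGAAG 8 bases before the start, and 3 matches of GGGCGG on the minus strand.

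Zfp719 (chromosome 7, 43579559 to 43593710), a KRAB gene with 13 finger patterns, stood at 2.76, 2.47 and 2.58 TPM in wild type with PBS and at 7.98, 6.001 and 6.33 with C. albicans. The knockout libraries had 3.16, 3.35 and 2.65 TPM with PBS and 4.26, 4.39 and 3.36 with C. albicans. Each wild-type C. albicans library is above every other library, and replicate 1 is the highest. The wild-type mean rose 2.602-fold, a log2 change of 1.10 ± 0.119 (SE; limma, adjusted p = 1.23e-05), and the difference in the knockout, 0.30, did not pass (adjusted p = 0.147).

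Zfp429 and Zfp456 are neighbours on chromosome 13 that share a KRAB box and 10 finger patterns each. Zfp429 (67388924 to 67399917) had 9.28, 10.3 and 7.73 TPM in wild type with PBS and 19.99, 18.5 and 17.8 with C. albicans, against 11.9, 10.9 and 11.7 and then 15.2, 15.04 and 16.2 in the knockout. It rose in both genotypes, 2.06-fold in wild type (log2 0.97; limma, adjusted p = 1.84e-06) and 1.35-fold in the knockout (log2 0.40; adjusted p = 0.0133), with no overlap between treatments in either. Zfp456 (67363584 to 67375763) had 2.94, 3.46 and 2.59 TPM in wild type with PBS and 7.45, 5.20 and 5.26 with C. albicans. Its knockout libraries had 2.75, 3.21 and 2.31 TPM and then 3.73, 3.58 and 4.18. The wild-type rise was 1.99-fold (log2 0.79; limma, adjusted p = 0.000552), and the knockout difference of 0.37 did not pass (adjusted p = 0.127). Zfp429 shares 25.3% of its 50-base words with other genes and Zfp456 16.5%, and both overlap exons of other genes, so reads may be split between copies.

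These 2 genes lie in a cluster of 17 members between 67121659 and 67827000 on chromosome 13, all of which hold a KRAB pattern, 1 of them (Zfp953) by the wider pattern alone. Their neighbours did not move with them. In the response in wild type 2 of the 17 rose, Zfp429 and Zfp456, and 3 fell, Zfp85, Zfp273 and Zfp87 (the last 2 are named because they complete that count). Among the 15 cluster members with a promoter window, the windows of Zfp429 and Zfp456 were the most alike of 105 pairs, with 86.0% identity against a median of 52.6% and a lowest value of 44.5%. Zfp429 and Zfp85 were 45.4% identical.

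The 30 bases below, from RefSeq's GRCm38.p6 (chr13:67399839-67399868 and chr13:67375833-67375862, both minus strand), show how close the pair is. The capitals mark GGGANTTCC, a form of the NF-kB site, which begins 95 bases before RefSeq's start of Zfp429 and 93 before that of Zfp456. Outside these 30 bases the Zfp429 window holds a second match, on the minus strand 28 bases before the start, while the Zfp456 window holds only 1. RefSeq's start of Zfp429 lies inside the gene bounds given above, so 150 of the 250 bases of its window, these 30 among them, are within the annotated gene. None are for Zfp456.
Zfp429: ggttctGGGATTTCCttcgcacagacttct
Zfp456: ggttctGGGATTTCCgtcgcacagacttct
Of these 30 bases 29 are identical. The whole window of Zfp456 (chr13:67375764-67376013) and that of Zfp85 (chr13:67755203-67755452), which fell, are given for comparison, both minus strand, with the CCAAT box and GGGANTTCC in capitals.
Zfp456: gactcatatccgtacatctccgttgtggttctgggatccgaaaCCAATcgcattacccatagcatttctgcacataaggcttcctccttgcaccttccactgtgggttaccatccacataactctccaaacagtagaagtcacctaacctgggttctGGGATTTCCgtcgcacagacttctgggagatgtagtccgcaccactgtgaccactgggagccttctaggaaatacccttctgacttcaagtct
Zfp85: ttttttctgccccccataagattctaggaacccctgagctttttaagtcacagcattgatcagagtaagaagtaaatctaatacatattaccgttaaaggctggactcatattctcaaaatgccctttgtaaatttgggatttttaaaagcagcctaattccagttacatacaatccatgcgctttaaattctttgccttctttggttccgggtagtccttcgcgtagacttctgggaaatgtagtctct
None of the 7 motifs searched is in the Zfp85 window.

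Zfp607a and Zfp800 complete the 6 largest rises. Zfp607a (chromosome 7, 27860494 to 27903063; KRAB, 18 finger patterns) had 5.37, 4.72 and 4.17 TPM in wild type with PBS and 11.1, 9.92 and 7.51 with C. albicans, a 1.999-fold rise (log2 0.86; limma, adjusted p = 0.000428). Its knockout libraries had 4.93, 3.66 and 4.06 TPM and then 5.60, 6.70 and 4.86, and these groups overlap. Zfp800 (chromosome 6, 28210548 to 28398033), with 6 finger patterns and no KRAB pattern, had tightly grouped libraries, at 9.85, 9.23 and 10.0 TPM with PBS and 15.2, 15.4 and 15.2 with C. albicans in wild type. Its knockout libraries were at 7.68, 7.99 and 7.78 TPM with PBS and 10.98, 9.45 and 9.78 with C. albicans. Zfp800 rose in both genotypes, by 0.61 (limma, adjusted p = 8.46e-06) and 0.33 (adjusted p = 0.00692) on the log2 scale.

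Among the falls, Zfp395 was the largest. This gene (chromosome 14, 65358676 to 65398930) encodes a protein with 1 finger pattern, described as binding the promoter of the Huntington disease gene. Its levels were 10.6, 11.7 and 11.8 TPM in wild type with PBS and 5.66, 3.87 and 4.58 with C. albicans, and 8.96, 9.18 and 10.2 and then 8.03, 7.68 and 8.31 in the knockout. The wild-type C. albicans libraries are lower than all others. The mean fell to 0.414 of its PBS level in wild type, a log2 change of -1.13 ± 0.101 (SE; limma, adjusted p = 2.34e-06), while the knockout difference of -0.21 did not pass (adjusted p = 0.225).

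Zfp821, Zfp472, Zfp580, Zfp346 and Zfp85 followed. Zfp821 fell from 16.9, 18.4 and 20.5 TPM to 9.85, 12.1 and 11.1 in wild type (log2 -0.71; limma, adjusted p = 8.48e-05). Zfp472, with 12 finger patterns, fell from 17.8, 17.6 and 15.7 TPM to 10.1, 9.85 and 11.2 (log2 -0.67; limma, adjusted p = 1.62e-05). In both genes the treatments do not overlap in wild type. Zfp346 encodes JAZ, a protein that binds double-stranded RNA through its fingers. It fell from 18.0, 17.4 and 18.6 TPM to 11.5, 11.5 and 11 (log2 -0.63; limma, adjusted p = 1.71e-05). Zfp580 fell from 4.67, 3.70 and 4.46 TPM to 2.26, 2.75 and 2.01 (log2 -0.66; limma, adjusted p = 0.00433), on only 18 to 72 reads per library. Zfp85 went from 4.96, 4.28 and 3.36 TPM to 2.40, 2.74 and 2.43 (log2 -0.55; limma, adjusted p = 0.00477), with 25.2% of its words shared with other genes.

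For Zfp472 the promoter window (RefSeq GRCm38.p6, chr17:32965581-32965830, plus strand) is shown as the leading fall whose window lies wholly outside the annotated gene, with its 1 CCAAT in capitals.
Zfp472: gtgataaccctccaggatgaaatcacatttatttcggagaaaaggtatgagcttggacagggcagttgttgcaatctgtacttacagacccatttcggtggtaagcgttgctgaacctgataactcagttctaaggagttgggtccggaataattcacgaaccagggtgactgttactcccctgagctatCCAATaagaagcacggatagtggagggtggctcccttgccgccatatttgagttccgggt
RefSeq windows were matched for 224 members (269 windows, some genes having several starts), and 7 motifs were searched on both strands in the 250 bases before each start. They were the CCAAT box, the GC box GGGCGG, the ETS core CGGAAG, the CRE site TGACGTCA, the E-box CACGTG, the AP-1 site TGANTCA and the form of NF-kB site GGGANTTCC, and they were chosen after the sequences had been seen. CCAAT was in 49.8% of member windows against 33.8% of all 32851 windows and 34.7% of those of other genes at the same level rule. For CGGAAG the shares were 30.1%, 13.6% and 27.1%, and for GGGCGG 43.1%, 32.7% and 58.8%. The other 4 motifs were each in 5.20% of member windows or fewer. GGGANTTCC was in 2.97% of member windows, 1.43% of all and 2.07% of those of other genes at the level, and in 2 of 14 members that rose and 1 of 57 that fell, too few to set apart. Of members with a window, CCAAT was in 7 of 14 that rose in wild type and 24 of 57 that fell, so the motif did not set these 2 sets apart. A match is a description of the letters only.

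**Figure D1:**
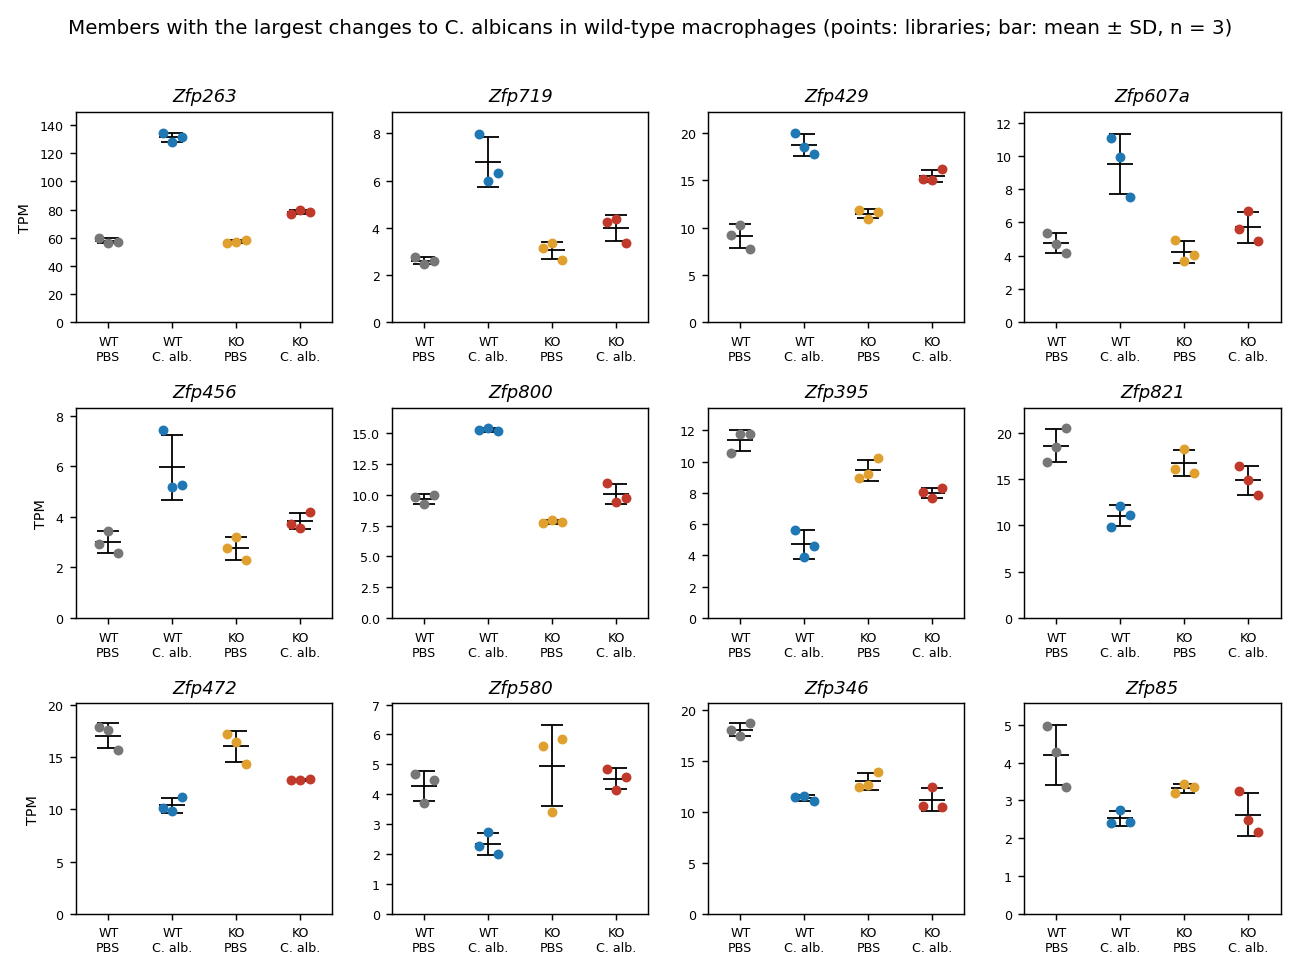
TPM (vertical axes, from 0) of the 6 members that rose most to C. albicans in wild type and the 6 that fell most, in the 4 groups. Points are libraries, and bars show the mean ± SD (n = 3). In Zfp263 the wild-type C. albicans libraries lie at 128 to 134 TPM and the knockout ones at 76.9 to 79.5.

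The same comparison in the knockout gave far fewer calls. Zfp263, Zfp429, Zfp800, Zfp62 and Zfp131 rose and 7 members fell, which is 1.89% and 2.65% of the members, where 3.94% of all tested genes were called higher and 3.14% lower. Under median-ratio factors the counts were 5 higher and 4 lower (5.36% and 1.57% of all genes), and without the length and GC trend 6 and 6 (4.95% and 2.68%). The count is unstable: it was 23 without wild-type C. albicans replicate 1 (5 higher, 18 lower) and 3 without knockout C. albicans replicate 3. Without 1 of knockout PBS replicates 1 and 3 or knockout C. albicans replicates 1 and 2 it was 6 or 7. All 5 rises and all 7 falls were also called in the same direction in wild type, where 16.1% of all tested genes were called higher and 28.3% lower. This overlap was not counted over all tested genes, so it cannot be read as particular to the members.

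Zfp131, a zinc finger protein with a BTB domain, had 14.1, 12.8 and 14.7 TPM with PBS and 17.3, 16.5 and 18.0 with C. albicans in the knockout (log2 0.30; limma, adjusted p = 0.0131). In wild type its rise was 0.48, from 16.1, 16.3 and 15.1 TPM to 23.7, 21.1 and 22.5 (limma, adjusted p = 7.40e-05). Zfp62, with 25 finger patterns, rose by 0.31 in the knockout (limma, adjusted p = 0.0351) and by 0.43 in wild type (adjusted p = 0.000872). The largest fall in the knockout was that of Zfp623, from 9.31, 9.40 and 9.95 TPM to 6.29, 7.37 and 7.12 (log2 -0.41; limma, adjusted p = 0.00504), with no overlap. Zfp652, a repressor that partners CBFA2T3, Zfp472, Zfp653, Zfp362 and Zfp609, which binds the Integrator complex, fell by 0.24 to 0.30 with adjusted p between 0.0192 and 0.0347. Of the 11 members named here, Zfp263, Zfp800 and Zfp623 kept their call in the knockout under all alternatives, Zfp429 and Zfp131 lost it only without knockout C. albicans replicate 3, and the other 6 lost it under several.

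Whether the response differed between genotypes was tested as an interaction, the knockout's log2 response less the wild-type one. It was called in 12 members, 8 with a higher value in the knockout and 4 with a lower one, or 3.03% and 1.52%, where 7.52% and 6.33% of all tested genes were called. Median-ratio factors gave 5 higher and 8 lower (5.93% and 8.31% of all genes), and without the length and GC trend 10 and 5 (6.54% and 7.18%). The number was 19 without wild-type C. albicans replicate 1 and 7 without knockout PBS replicate 3 or knockout C. albicans replicate 3. Both shares of members lie below those of all tested genes, a difference that was not tested.

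In 3 of the 4 lower members the wild-type rise was the larger one. The interaction was -0.73 ± 0.051 for Zfp263 (SE; limma, adjusted p = 3.39e-06), -0.80 ± 0.168 for Zfp719 (adjusted p = 0.00776) and -0.57 ± 0.120 for Zfp429 (adjusted p = 0.00738). Zfp407, a gene of 22 finger patterns, was the other, at -0.31 (limma, adjusted p = 0.035). It had 7.82, 8.11 and 8.87 TPM in wild type with PBS and 9.11, 9.48 and 9.23 with C. albicans, against 6.57, 6.56 and 6.72 and then 5.66, 5.89 and 5.82 in the knockout, so the fungus groups lie above PBS in wild type and below it in the knockout, though neither response passed alone.

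Among the 8 higher ones, Zfp395 (0.91 ± 0.142), Zfp821 (0.55), Zfp346 (0.42), Zfp90 (0.41), Zfp709 (0.39), Zfp472 (0.37) and Zfp414 (0.35) had a called fall in wild type and a smaller difference in the knockout. For Zfp395 the interaction gave a limma adjusted p of 0.0012, and for the other 6 it lay between 0.0144 and 0.0464. Zfp90 is an example: it had 9.98, 8.77 and 8.29 TPM with PBS and 6.28, 5.94 and 6.38 with C. albicans in wild type, against 8.45, 8.17 and 8.42 and then 7.83, 7.89 and 8.03 in the knockout. The eighth, Zfp189 (0.45; limma, adjusted p = 0.0408), had 4.16, 4.29 and 4.002 TPM and then 3.21, 3.92 and 3.33 in wild type, and 2.73, 2.73 and 2.41 and then 3.40, 3.04 and 3.45 in the knockout. Its groups move in opposite directions without overlap, and neither response passed alone. The calls of Zfp263, Zfp719, Zfp429, Zfp395, Zfp346 and Zfp90 held under all alternatives, and those of Zfp821, Zfp189, Zfp709, Zfp407, Zfp472 and Zfp414 did not.

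Looking beyond the called interactions, all 16 members that rose in wild type had a smaller log2 value in the knockout, and 15 of them were above 0. Of the 71 that fell in wild type, 65 were below 0 in the knockout and 68 fell by less or not at all. These members were chosen by their wild-type values, so the counts describe them and carry no test. Zfp607a, Zfp456 and Zfp800 show the pattern with no call of the interaction, at -0.50, -0.42 and -0.28 (limma, adjusted p = 0.13, 0.176 and 0.0533).

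**Figure D2:**
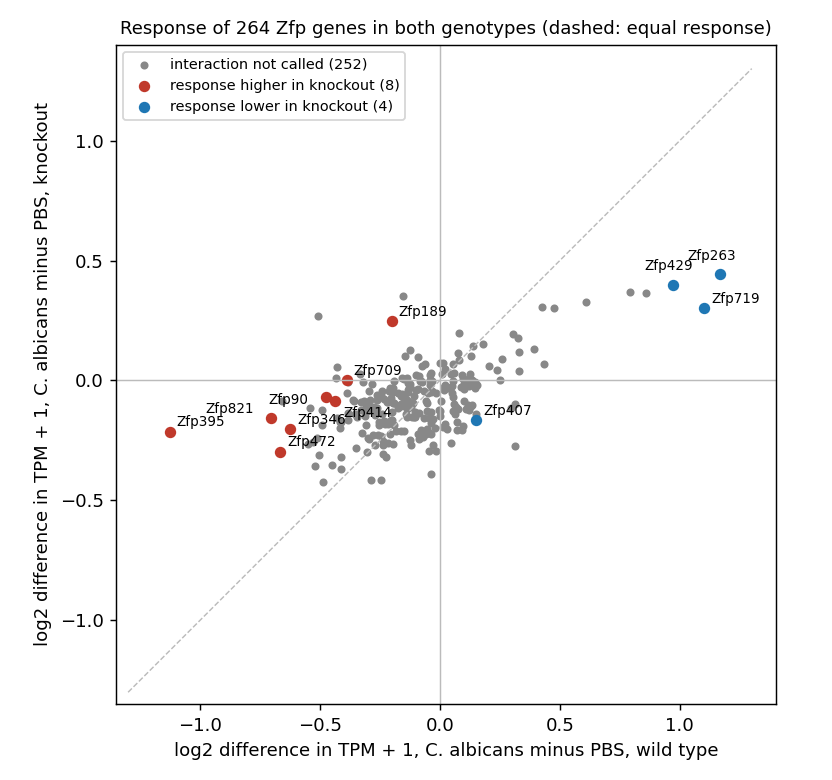
Each point is 1 of the 264 members, placed by its log2 difference in TPM + 1 between C. albicans and PBS in wild type (horizontal) and in the knockout (vertical). Coloured points are the 12 members with a called interaction, and the dashed line marks equal responses. Zfp263 lies at 1.17 and 0.44 and Zfp395 at -1.13 and -0.21, both closer to 0 in the knockout.

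The knockout was then compared with wild type under each treatment. With PBS, Zfp52 and Zfp429 were higher in the knockout and 60 members were lower, which is 0.758% and 22.7%, against 6.14% and 26.1% of all tested genes. With C. albicans 16 were higher and 68 lower, 6.06% and 25.8%, against 12.4% and 27.5%. The excess of lower calls is one of the tested genes as a whole, and the members' share of it is near the background. Macrophage marker sums were lower in the knockout in the same libraries, most of it in Lyz2, at 19420 to 19960 TPM in wild type and 8948 to 9269 in the knockout with PBS. Itgam, Csf1r and Adgre1 were lower too, while Cd68 was higher, at 3064 to 3090 against 2470 to 2502 TPM, and so was Cd14, at 628.7 to 649.9 against 572.7 to 613.9. The markers thus did not move one way, and their part in these differences was not tested. In bulk RNA fewer cells of a type and less RNA per cell cannot be told apart. Without wild-type C. albicans replicate 1 the counts were 2 higher and 65 lower with PBS and 15 and 56 with C. albicans.

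This split rests on the scale more than any other. With median-ratio factors 11 members were higher and 34 lower with PBS (14% and 14.3% of all genes) and 24 and 52 with C. albicans (19.1% and 21.8%). With the length and GC trend removed the excess of lower members was gone: 13 were higher and 13 lower with PBS (9.27% and 9.24% of 11212 genes), and 29 higher and 21 lower with C. albicans (16.1% and 15.5%). Each member named below as among the 6 largest of a comparison kept its direction and call in that comparison under both scalings.

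With TPM as deposited, 35 members were called lower under both treatments, 58.3% of those with PBS and 51.5% of those with C. albicans. None was called higher under both. The same overlap was not counted over all tested genes or on the other scales, so it cannot be read as particular to the members. Among the lower members Zfp369 had the largest difference under both treatments. Also called Nrif2, it encodes a protein that interacts with the p75 neurotrophin receptor (chromosome 13, 65277228 to 65304222; 5 finger patterns and a SCAN pattern). Its levels were 5.47, 6.49 and 5.18 TPM in wild type with PBS and 6.47, 5.88 and 5.20 with C. albicans, and 2.63, 2.77 and 3.19 and then 2.40, 2.003 and 2.66 in the knockout. All 6 knockout libraries lie below all 6 of wild type, with means at 0.501 and 0.403 of the wild-type level. The log2 differences were -0.80 ± 0.113 with PBS (SE; limma, adjusted p = 0.000231) and -1.03 ± 0.113 with C. albicans (adjusted p = 1.79e-05), and the fungus itself made no called difference in either genotype.

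Zfp469 (chromosome 8, 122043123 to 122272650) is the mouse counterpart of a gene mutated in brittle cornea syndrome. Its distance from the Piezo1 gene, the altered locus, was not examined. Zfp469 behaved alike in genotype but rose with the fungus in wild type. It had 4.63, 5.30 and 5.35 TPM in wild type with PBS and 7.16, 6.38 and 6.37 with C. albicans, against 2.96, 2.38 and 3.14 and then 2.96, 3.57 and 3.44 in the knockout. The knockout differences were -0.67 and -0.82 on the log2 scale (limma, adjusted p = 0.000357 and 4.70e-05). Its transcript is long, 12915 bases, and with the length and GC trend removed the differences were -0.34 and -0.56, both still called.

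Zfp236 and Zfp710 were lower in the knockout whatever the treatment. Zfp236, with 30 finger patterns, had 12.1, 12.5 and 13.1 TPM with PBS and 13.2, 12.6 and 13.4 with C. albicans in wild type, and 7.67, 8.13 and 8.68 and then 8.35, 9.04 and 7.73 in the knockout. The log2 differences were -0.56 and -0.59 (limma, adjusted p = 7.66e-05 and 2.81e-05). On removing the length and GC trend the first became -0.26, still called. Zfp710 had means of 38.0 ± 2.18 and 34.6 ± 3.63 TPM in wild type and 26.3 ± 2.02 and 25.5 ± 0.301 in the knockout (SD, n = 3), with log2 differences of -0.52 and -0.42 (limma, adjusted p = 0.000286 and 0.000752). Zfp189 and Zfp526 close the 6 largest with PBS, at -0.51 and -0.50 (limma, adjusted p = 0.00135 and 0.00109). With C. albicans the difference of Zfp189 was -0.06 (limma, adjusted p = 0.649) and that of Zfp526 -0.26 (adjusted p = 0.0347).

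With C. albicans the lower members also included Zfp973 (-0.90; limma, adjusted p = 0.000315), Zfp971 (-0.65; adjusted p = 0.00249), Zfp607a (-0.64; adjusted p = 0.00357) and Zfp263 (-0.74; adjusted p = 4.24e-08). Zfp973 shares 88.4% of its 50-base words with other genes and Zfp971 40.0%, and both lie on chromosome 2 (176670522 to 176681090 and 178023284 to 178035859), so the copy that the reads come from is uncertain. Zfp263 did not differ by a call with PBS, at -0.01 (limma, adjusted p = 0.805).

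Members higher in the knockout were fewer. With PBS, Zfp52 had 12.6, 12.6 and 10.0 TPM in wild type and 14.7, 16.5 and 15.3 in the knockout (log2 0.38; limma, adjusted p = 0.00438), and Zfp429 was higher by 0.31 (adjusted p = 0.0132). With C. albicans the 6 largest were Zfp580 (0.73), Zfp395 (0.67), Zfp667 (0.56), Zfp821 (0.40), Zfp414 (0.39) and Zfp963 (0.36), with limma adjusted p from 0.000199 to 0.0311. Of these, Zfp580, Zfp395, Zfp821, Zfp414 and Zfp963 were among the members that fell to C. albicans in wild type. The exception, Zfp667, had 5.82, 6.26 and 4.51 TPM with PBS and 6.52, 5.03 and 3.63 with C. albicans in wild type, and 7.66, 6.28 and 7.14 and then 7.29, 8.37 and 7.57 in the knockout. Zfp414 and Zfp963 share 44.0% and 40.4% of their words with other genes and overlap another gene on the same strand, and the call of Zfp963 was lost under 5 alternatives.

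**Figure D3:**
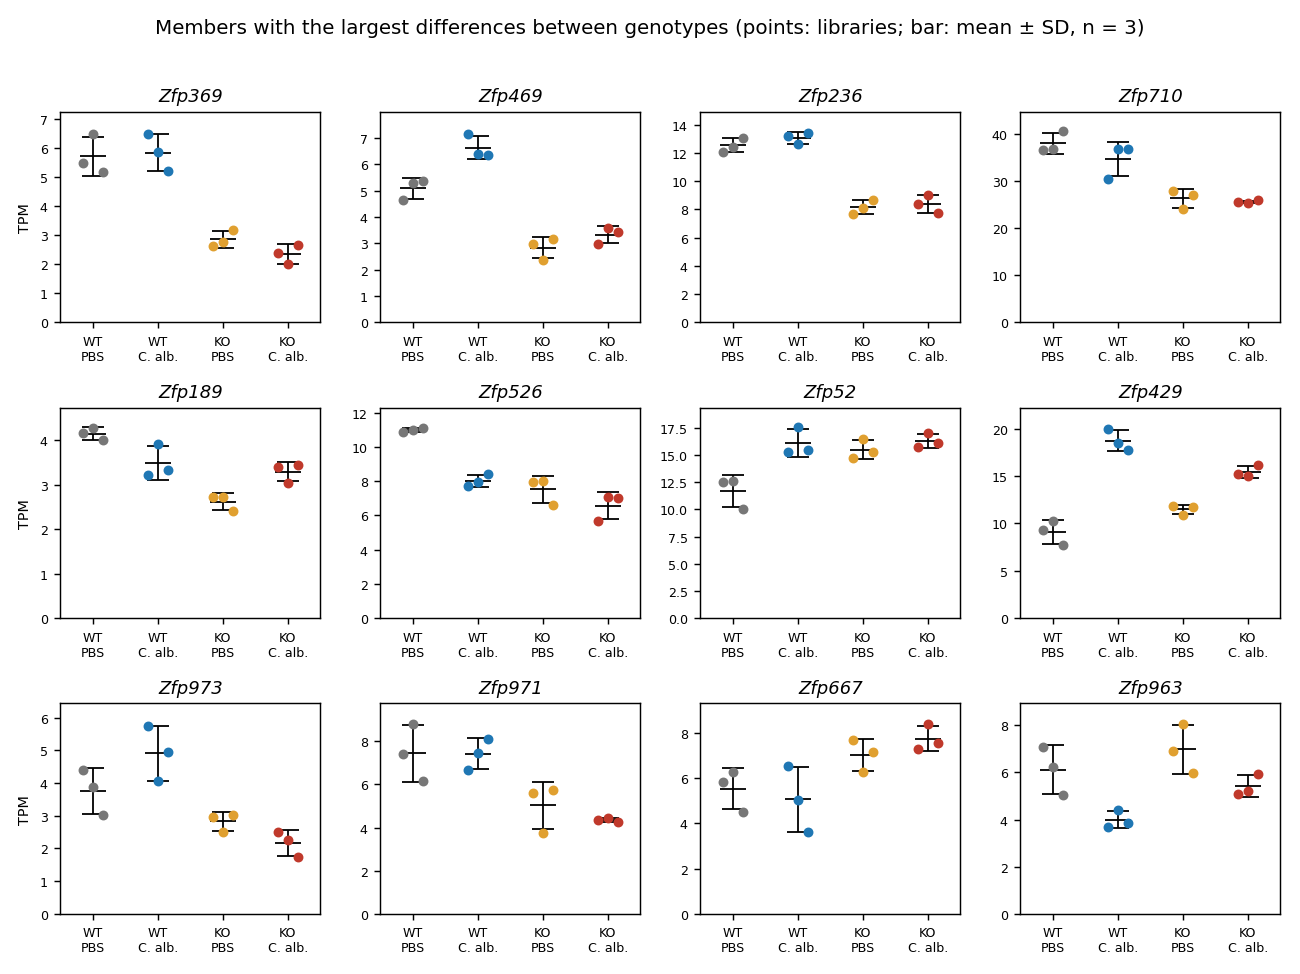
TPM (vertical axes, from 0) of 12 members with large differences between genotypes, in the 4 groups. Points are libraries, and bars show the mean ± SD (n = 3). In Zfp369 the knockout libraries lie between 2.003 and 3.19 TPM and the wild-type ones between 5.18 and 6.49.

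As a whole the members moved little. Genes of like level were the 4468 non-members under the same level rule whose mean TPM lay between the members' 10th and 90th percentile, 2.79 to 23.1. Those of like level and length were 2622, from 2263 to 6890 bases. At like level 13% were called higher and 27% lower in the response in wild type, and 2.84% and 2.8% in the knockout. For the knockout effect the shares were 3.56% and 25.5% with PBS and 8.84% and 28.1% with C. albicans. In the interaction they were 5.62% and 4.86%. At like level and length 12.1% were higher in the response in wild type and 2.14% in the knockout with PBS. The median log2 difference in the response in wild type was -0.12 in members, -0.09 at like level, -0.11 at like level and length and -0.07 over all tested genes. For the knockout effect the 4 medians were -0.10, -0.11, -0.11 and -0.08 with PBS and -0.08, -0.07, -0.08 and -0.05 with C. albicans. With the length and GC trend removed the medians between genotypes turned positive, at 0.01 in members and at like level with PBS and 0.07 and 0.03 with C. albicans, and in the response in wild type members less like level went from -0.0274 to -0.0614. Medians of the interaction lay between 0.02 and 0.04 in all 4 sets.

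In the response in the knockout the members stood lowest, with a median of -0.10, against -0.05 at like level, -0.06 at like level and length and -0.04 over all genes. Below 0 were 208 of 264 members, 2979 of 4468 genes of like level, 1824 of 2622 of like level and length and 7067 of all 11283. With median-ratio factors 178 members and 2476 genes of like level were below 0. To see the members' lower median against the spread of libraries, each gene was centred on its mean. The median over like-level genes was then taken from that over members in each library. The knockout PBS libraries gave 0.0215, 0.0212 and 0.0278 and the knockout C. albicans libraries -0.0104, -0.0165 and -0.0167, which do not overlap. Wild-type libraries gave 0.0491, 0.0220 and -0.0294 with PBS and -0.0456, 0.0170 and -0.0043 with C. albicans, which do. No test is given, since the value is a score over members.

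Summed over members, the level was 3016 ± 80.8 TPM in wild type with PBS, 2893 ± 54.5 in wild type with C. albicans, 2788 ± 38.1 in the knockout with PBS and 2659 ± 9.59 in the knockout with C. albicans (SD, n = 3). Without Zfp263 the sums were 2958, 2762, 2731 and 2581 TPM. With TPM as deposited, the sums without it were lower with C. albicans in both genotypes. The median-ratio factors were 1.05 to 1.06 in wild type with PBS and 0.991 to 1.02 with C. albicans. In the knockout they were 0.981 to 0.996 with PBS and 0.959 to 0.963 with C. albicans. The sums were not rescaled by these factors, so their order may depend on the scale.

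**Figure D4:**
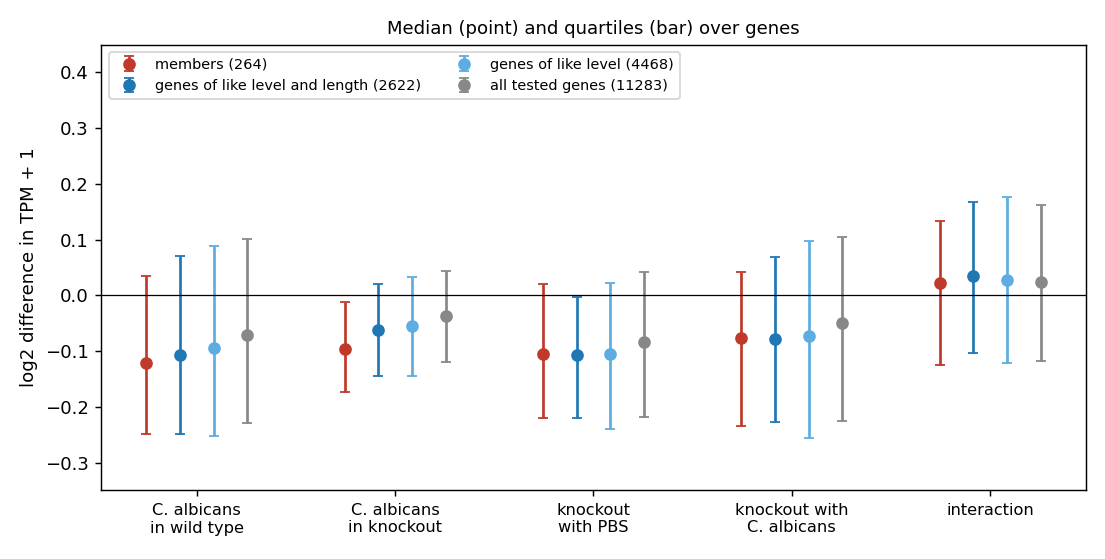
Median (points) and lower and upper quartile (bars) of the log2 difference in TPM + 1 in 5 comparisons, for the members, for genes of like level with and without like length, and for all tested genes. The 4 medians lie within 0.06 of each other in each comparison, and the members are lowest in the response in the knockout.

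**Figure D5:**
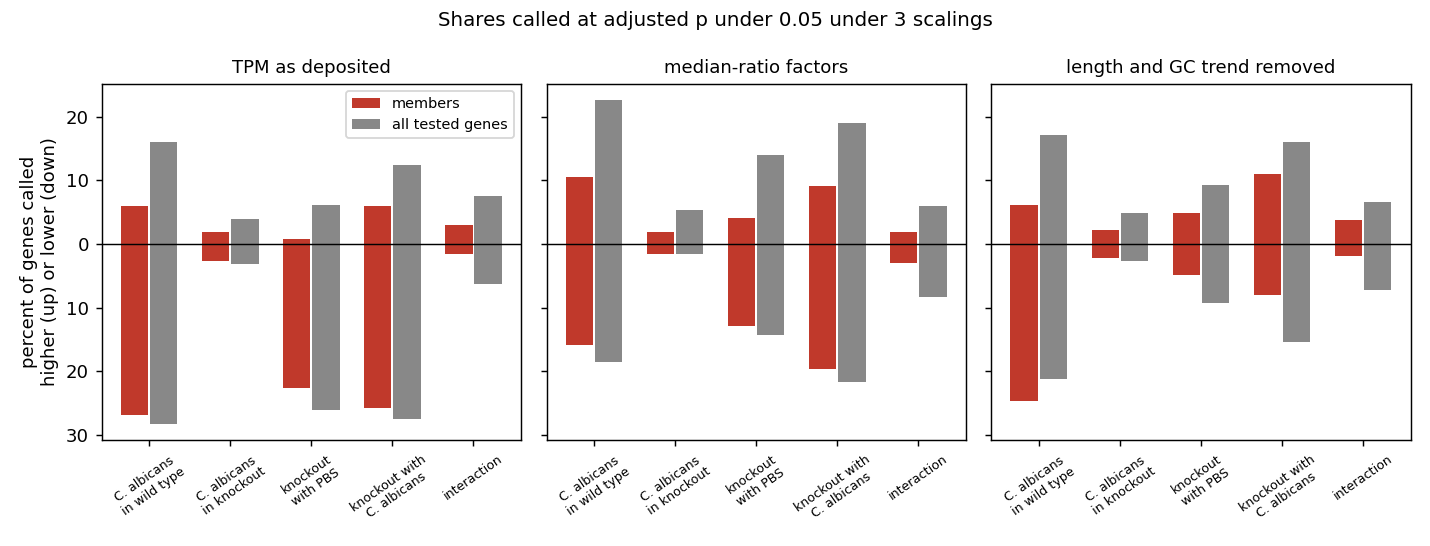
Percent of members (red) and of all tested genes (grey) called higher (upward bars) or lower (downward bars) at an adjusted p under 0.05, with TPM as deposited, with median-ratio factors, and with the length and GC trend removed. With the trend removed 4.94% of members were called lower in the knockout with PBS, against 22.7% with TPM as deposited.

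The members were also split by the KRAB pattern, and the order of the 2 classes in the response depended on the scale. With TPM as deposited, in the response in wild type 20 of 113 with the pattern fell (17.7%) and 51 of 149 without it (34.2%), while 8 and 7 rose. In the knockout 1 with the pattern rose and none fell, and 4 and 7 of those without it did. Over all tested genes 28.3% fell in wild type. Lower in the knockout with PBS were 14 (12.4%) and 45 (30.2%), and with C. albicans 20 (17.7%) and 47 (31.5%). Over all tested genes 26.1% and 27.5% were lower. Higher were 2 and 0 with PBS and 3 and 13 with C. albicans, where 6.14% and 12.4% of all tested genes were higher. With the wider pattern the shares lower were 18.5% and 37.9%, 14.4% and 32.8%, and 18.5% and 34.5%. The medians were close, -0.09 and -0.13 in the response in wild type. With the length and GC trend removed the order turned there: 30 with the pattern fell (26.5%) and 35 without it (23.5%), or 26% and 23.3% by the wider pattern, and the medians were -0.15 and -0.11. Between genotypes 1 with the pattern and 11 without it were then lower with PBS, while 9 and 4 were higher. With C. albicans 5 and 15 were lower and 13 and 16 higher. Of all tested genes 9.24% were then lower and 9.27% higher with PBS, and 15.5% lower and 16.1% higher with C. albicans. Members with the pattern also had lower levels, as given above, and the part of level in these shares was not tested.

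The corepressor and heterochromatin genes that KRAB proteins work through were more often called lower than higher in the knockout with PBS. So were all tested genes with TPM as deposited. With C. albicans the balance of the list depended on the scale. Of 41 list genes with a row, 38 were tested. In the knockout with PBS 20 were lower (52.6%) and none higher, against 26.1% and 6.14% of all tested genes. With C. albicans 16 were lower (42.1%) and 3 higher (7.89%), against 27.5% and 12.4%. In the response 5 rose (13.2%) and 11 fell (28.9%) in wild type, near the 16.1% and 28.3% of all tested genes. In the response in the knockout 1 fell (2.63%), against 3.14%. With median-ratio factors 11 were lower and 3 higher in the knockout with PBS (14.3% and 14% of all genes). With C. albicans 14 and 6 were (21.8% and 19.1%). Without the length and GC trend 7 were lower and 1 higher with PBS (9.24% and 9.27% of all genes). With C. albicans 8 and 7 were (15.5% and 16.1%). Trim28, the corepressor itself, had 89.8 ± 3.88 TPM in wild type with PBS and 74.3 ± 2.45 with C. albicans, and 88.1 ± 3.89 and 78.3 ± 2.85 in the knockout (SD, n = 3). It fell in both genotypes, by 0.27 (limma, adjusted p = 0.000543) and by 0.17 (adjusted p = 0.0497), and did not differ by a call between them. Setdb1 fell by 0.22 in wild type (limma, adjusted p = 0.0136). Atf7ip, the partner that stabilises Setdb1, was lower in the knockout, at 15.3 ± 0.508 against 26.7 ± 0.544 TPM with PBS (log2 -0.77; limma, adjusted p = 1.34e-06). Zfp57, a KRAB protein of imprinted loci, was listed with no read.

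Other zinc finger families are given beside the shares of all tested genes. Of these genes 16.1% rose and 28.3% fell to C. albicans in wild type. Knockout libraries had 26.1% lower and 6.14% higher with PBS, and 27.5% and 12.4% with C. albicans. With the length and GC trend removed, 9.24% were lower with PBS and 15.5% with C. albicans. Of 34 tested Zbtb genes, which pair fingers with a BTB domain, 4 rose (11.8%) and 9 fell (26.5%) to C. albicans in wild type. Between genotypes 14 (41.2%) were lower and 1 higher in the knockout with PBS, and 20 (58.8%) and 3 with C. albicans. Once the length and GC trend was removed, 4 (11.8%) were lower and 1 higher with PBS and 7 (20.6%) and 4 with C. albicans. Of 15 tested Zc3h genes, which carry CCCH fingers and bind RNA, 3 rose (20%) and 4 fell (26.7%) in wild type. In the knockout 9 (60%) were lower with PBS and 10 (66.7%) with C. albicans, and 0 and 1 were higher. Without that trend 5 (33.3%) and 8 (53.3%) were lower and none higher. The Zc3h shares lower in the knockout thus lay above those of all tested genes on both scales. The list is short, and the difference was not tested. Of 17 tested Zkscan and Zscan genes 1 rose (5.88%) and 5 fell (29.4%) in wild type, and 2 (11.8%) were lower in the knockout under each treatment. Of the 129 Zfp rows under the level, 26 had no read and 35 were tested, of which 1 rose (2.86%) and 4 fell (11.4%) in wild type.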

How the data were processed

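Polyadenylated RNA of 12 macrophage libraries, 3 in each of 4 groups, was sequenced. TPM values per library were deposited by the authors in 1 table. The submitters' processing notes name CASAVA 1.8, cutadapt 2.6, STAR 2.7.5a and DESeq2 1.34.0 with mm10. The read counter, strand setting and annotation were not found in the labels. Per the file headers, the table also holds the authors' mean signal over libraries, a log2 fold change with its error, a test score (the Wald statistic) and a p-value with its adjusted form, for 1 comparison. That comparison was identified from the values, with log2 ratios of recovered reads divided by a size factor per library. Over 8780 well covered genes the authors' log2 fold changes differed from these ratios for the response in wild type by a median of 0.000904. For the other comparisons the median difference was 0.129 to 0.285. The log2(TPM + 1) changes given above are on another scale and differ more from the authors' values.

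Whole reads were recovered from TPM and the mean signal, with 100% of 171648 values whole within 0.01 reads, and served for depth and for the fit on reads (limma-voom). Genes without a symbol, 28 in all, held 0.00132% of reads.

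Here log2(TPM + 1) was fitted with limma 3.58.1 (R 4.3.3), variance trend on, 1 mean per group over all 12 libraries (8 residual degrees of freedom), and p-values were adjusted by Benjamini-Hochberg within each of 5 comparisons. The fit was tested on simulated data. Named genes are the 6 largest rises and falls among called members per comparison, the 6 most abundant, and the 3 on each side of the level rule. A few others (the remaining members with a called interaction, and members of the cluster on chromosome 13) were named after their values were seen. Members, lists and motifs were chosen with earlier results of these data known. Finger, KRAB and SCAN patterns were searched in translations of the longest coding transcript of GENCODE vM21, and promoters were read from RefSeq. Alternatives were another pseudocount, other filters on low values, the trend off, other scalings, a length and GC correction, fits on 2 groups or on reads, a replicate block, and leaving out each library.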

Additional observations from a re-analysis of the deposited data

Results flagged for a closer look

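For 12 members the difference between the 2 genotypes in the log2 response to C. albicans passed the interaction test of limma over all tested genes. The values are knockout response less wild-type response, each with 3 libraries in 4 groups.

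Lower in the knockout were Zfp263 at -0.726, Zfp719 at -0.80, Zfp429 at -0.575 and Zfp407 at -0.315. Higher in the knockout were Zfp395 at 0.913, Zfp821 at 0.547, Zfp189 at 0.448, Zfp346 at 0.423, Zfp90 at 0.405, Zfp709 at 0.39, Zfp472 at 0.37 and Zfp414 at 0.352. Zfp263, Zfp395, Zfp719, Zfp429, Zfp346 and Zfp90 passed under all alternatives run. Zfp821 lost the call without knockout PBS replicate 1 and without knockout C. albicans replicate 1, and Zfp189, Zfp709, Zfp407, Zfp472 and Zfp414 lost it under several alternatives. Zfp429 and Zfp414 share 25.3% and 44.0% of their 50-base words with other genes.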

How the results depend on the processing

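Of 55 results on named members, 40 passed the test under every alternative. Over 1253 values 114 no longer passed and none changed direction. Several alternatives (the filters, the trend off, the fits on 2 groups and the replicate block) leave the log2 value as it is. The results were also picked as called changes, so that none changed direction carries little weight. The results lost most often were those of the response in the knockout and of the interaction. Without the filter on low values, 6 members were called in the response in the knockout and 7 in the interaction, and limma-voom on reads called 19 in the interaction. With the length and GC trend removed, 26 members were called in the knockout with PBS and 50 with C. albicans, and the median of members less that of genes of like level was -0.0614 in the response in wild type and 0.035 for the knockout with C. albicans. Leaving out 1 library gave 66 to 89 calls in the response in wild type, 3 to 23 in the knockout, 43 to 67 and 64 to 89 between genotypes with PBS and C. albicans, and 7 to 19 in the interaction. The difference from like-level genes then ranged from -0.0438 to 0.00124 in wild type, the highest without wild-type PBS replicate 1, and from -0.0444 to -0.0333 in the knockout.

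Same-numbered libraries did not deviate together over all tested genes (correlations from -0.0874 to 0.0871). Such a check could miss a small shared effect, so it does not settle whether the numbers pair the libraries. The replicate block gave 84, 11, 57, 79 and 10 calls in the 5 comparisons, and the block together with the length and GC correction 25 and 47 between genotypes, with like-level differences of -0.0614 in the response in wild type and 0.035 for the knockout with C. albicans. At 0.0217 to 0.0344 TPM per read, depth limits members near 2 TPM most.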
